A study of Homo sapiens with 4 samples.

Results

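Short interspersed elements (SINEs) are short repeats that were copied through the genome by reverse transcription. Sites of TBX3 in these elements were compared between the Alu and MIR families. A site was a peak summit of replicate 1 that the deposited annotation placed in a repeat of class SINE, and whose mutually nearest summit in replicate 2 lay within 200 bp on the same chromosome. This rule gave 978 shared SINE sites among 22702 shared regions of the series (4.31%, 95% Wilson interval 4.05% to 4.58%). They comprised 553 Alu sites, 392 MIR sites and 33 sites of other SINE families.

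The data were chromatin immunoprecipitation followed by sequencing (ChIP-seq) of TBX3-3xHA in 501mel, an established human melanoma cell line kept in serum-containing medium. Peak names in the deposited lists write the protein as iTBX3, and what the prefix stands for is not given in the sources used here. The 2 ChIP samples used an HA antibody (12CA5), which recognises the peptide tag on TBX3 and not the untagged protein. The 2 input samples, chromatin of the same line without immunoprecipitation, were not analysed here. All samples came from this line under 1 condition, and no ChIP without the tagged protein is among them, so there was no comparison between conditions. The lists held 32479 peaks in replicate 1 and 40494 in replicate 2, and the read depth is unknown. The labels do not say whether the replicates were separate cultures or how the level of tagged TBX3 compared with that of the cell's own TBX3.

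TBX3 belongs to the T-box family of transcription factors, which bind DNA through a conserved domain and include repressors of cell cycle inhibitors and of melanocyte genes. Alu elements are primate repeats derived from the RNA of the signal recognition particle. They are rich in GC and CpG and accumulate in gene-rich DNA. Their subfamilies AluJ, AluS and AluY follow each other in age, with AluJ the oldest. MIR elements (mammalian-wide interspersed repeats) derive from transfer RNA, spread before the mammalian radiation and are now diverged fragments.

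The first comparison asked how often a peak in each family was found again in the other replicate. MIR peaks recurred more often than Alu peaks in both lists. Of 1033 Alu peaks in replicate 1, 553 had a partner (53.5%, interval 50.5% to 56.6%), against 392 of 575 MIR peaks (68.2%, 64.3% to 71.8%) and 69.9% of all replicate 1 peaks. In replicate 2, 528 of 1323 Alu peaks had a partner (39.9%, 37.3% to 42.6%), against 414 of 797 MIR peaks (51.9%, 48.5% to 55.4%) and 56.1% of all replicate 2 peaks. Alu lay well below the share over all peaks in both lists. The MIR interval held that share in replicate 1 and ended below it in replicate 2.

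The difference, Alu minus MIR, was -14.6 percentage points in replicate 1 (95% Newcombe interval -19.4 to -9.69) and -12.0 in replicate 2 (-16.4 to -7.66). Its mean was -13.3 ± 1.84 points (SD, n = 2). Both lists share 1 pairing, in which most pairs carry the same family at both summits. The 2 values are therefore not independent, and this SD does not measure spread between replicates. The shares themselves had means of 46.7% ± 9.63 for Alu and 60.1% ± 11.5 for MIR (SD, n = 2), so each family differed more between the lists than the difference did. Intervals here cover counting error only. Peaks of a library are not replicates, and with 2 libraries an exact paired permutation test cannot give a two-sided p under 0.5, so no p-value is given.

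Peaks with no repeat named at their summit recurred in 71.8% of cases in replicate 1 and 57.6% in replicate 2. Alu fell short of them by 18.3 points (difference -18.3, -21.4 to -15.2) and by 17.7 points (difference -17.7, -20.3 to -14.9). For MIR the difference was -3.67 points in replicate 1 (-7.64 to 0.0671) and -5.63 in replicate 2 (-9.16 to -2.12). The interval for MIR included 0 in replicate 1 and excluded it in replicate 2. Peaks with no repeat named were not limited by annotation here, whereas peaks with a repeat named were all intronic, intergenic or without annotation. The 2 sets therefore differ in position, and the part of position in these differences was not tested.

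Peaks in LINE elements, chosen for comparison after their values were seen, placed these shares among other repeats. L1 peaks recurred in 57.8% and 44.4% of cases, above Alu by 4.30 points in replicate 1 (Alu minus L1 -4.30, -8.30 to -0.300) and 4.46 in replicate 2 (-4.46, -7.93 to -0.967). L2, a LINE family of similar age to MIR, recurred in 56.8% and 48.5%. MIR exceeded L2 by 11.4 points in replicate 1 (6.58 to 16.1), while in replicate 2 the difference of 3.41 points had an interval that included 0 (-0.955 to 7.76).

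Score and family moved together. Each list was divided into 5 equal classes by score percentile, class 1 being the lowest. Class 1 held 32.0% of the replicate 1 Alu peaks and 23.5% of the MIR peaks, and class 5 held 9.29% and 20.3%. In replicate 2 class 1 held 36.7% of Alu and 22.8% of MIR peaks, and class 5 held 10.7% and 20.3%. MIR peaks were therefore spread almost evenly over the classes, and Alu peaks were crowded at low scores.

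The gap between the families was smaller within most classes. In class 1 of replicate 1, 18.4% of Alu and 25.9% of MIR peaks had a partner, and in class 2 39.9% and 55.3%. From class 3 upwards the largest gap in that list was in class 3, where Alu minus MIR was -3.73 points. In class 4 it was 2.74 points, and it was negative in all other classes of that list. In replicate 2 class 1 gave 11.8% for Alu and 7.14% for MIR, and class 5 gave 97.9% and 100%, where all 162 MIR peaks recurred. Averaged over classes with equal weight, the difference Alu minus MIR was -4.97 points in replicate 1 and 0.135 points in replicate 2. The direction held in replicate 1 at a smaller size and did not hold in replicate 2. The part of score in the lower recurrence of Alu was not tested further.

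**Figure D1:**
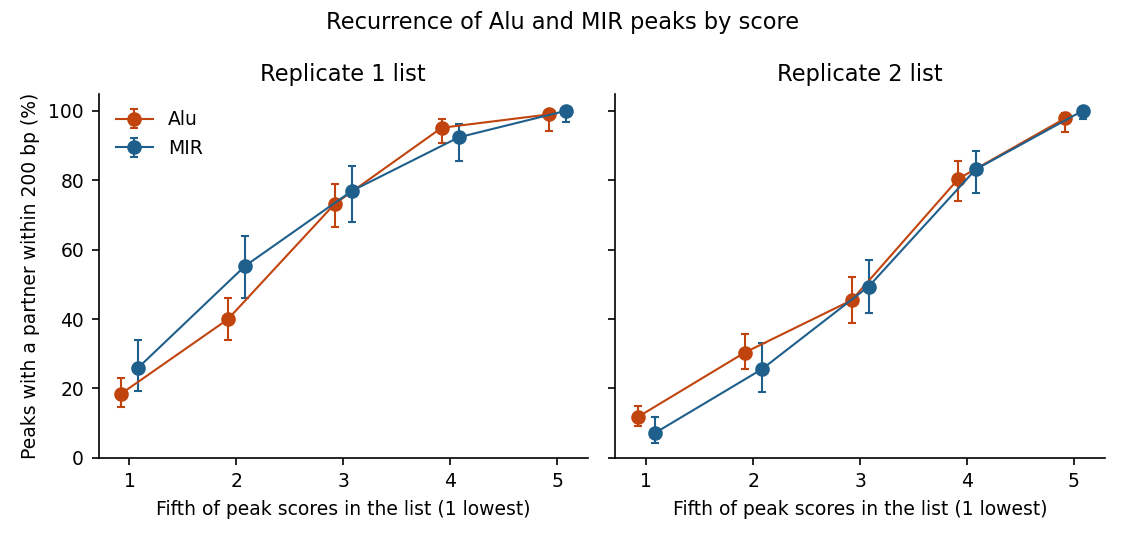
Share of Alu and MIR peaks with a partner within 200 bp in the other list (vertical axis, %), by class of peak score within the list (horizontal axis, 1 lowest to 5 highest), for replicate 1 (left) and replicate 2 (right); points are shares and bars 95% Wilson intervals. Both families climb from under 30% in class 1 to at least 97.9% in class 5, and the largest separation is in class 2 of replicate 1 (39.9% against 55.3%).

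The second comparison described the scores of the shared sites. Scores are given as percentiles within their own list, 100 being the highest, because the scale of the deposited score is not stated. Recurrence rises with score, so these values describe the members and are no independent support for the difference above. The median Alu site lay at percentile 56.4 in replicate 1 (binomial 95% interval 53.4 to 60.0) and 63.2 in replicate 2 (60.5 to 67.0). The median MIR site lay at 62.6 (59.6 to 67.3) and 74.4 (71.0 to 77.4). Alu was lower in both lists, by 6.22 percentile points in replicate 1 (difference -6.22) and 11.2 in replicate 2 (difference -11.2). The mean difference was -8.71 ± 3.53 (SD, n = 2). The 2 families' intervals overlapped slightly in replicate 1 and did not overlap in replicate 2.

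Shared regions with no repeat named, again not limited by annotation, had medians of 65.5 and 74.0, close to MIR. Strong sites were rarer in Alu. Of the Alu sites, 45 (8.14%, 6.14% to 10.7%) were in the top decile of replicate 1 and 62 (11.2%, 8.84% to 14.1%) in that of replicate 2. Of the MIR sites, 66 (16.8%, 13.5% to 20.9%) and 91 (23.2%, 19.3% to 27.6%) were, against 15.8% and 21.4% of the regions with no repeat named. The difference Alu minus MIR was -8.70 points in replicate 1 (Newcombe interval -13.2 to -4.45) and -12.0 in replicate 2 (-17.0 to -7.14). MIR differed from regions with no repeat named by 1.01 points (-2.43 to 5.08) and 1.84 points (-2.13 to 6.32), and both intervals included 0.

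**Figure D2:**
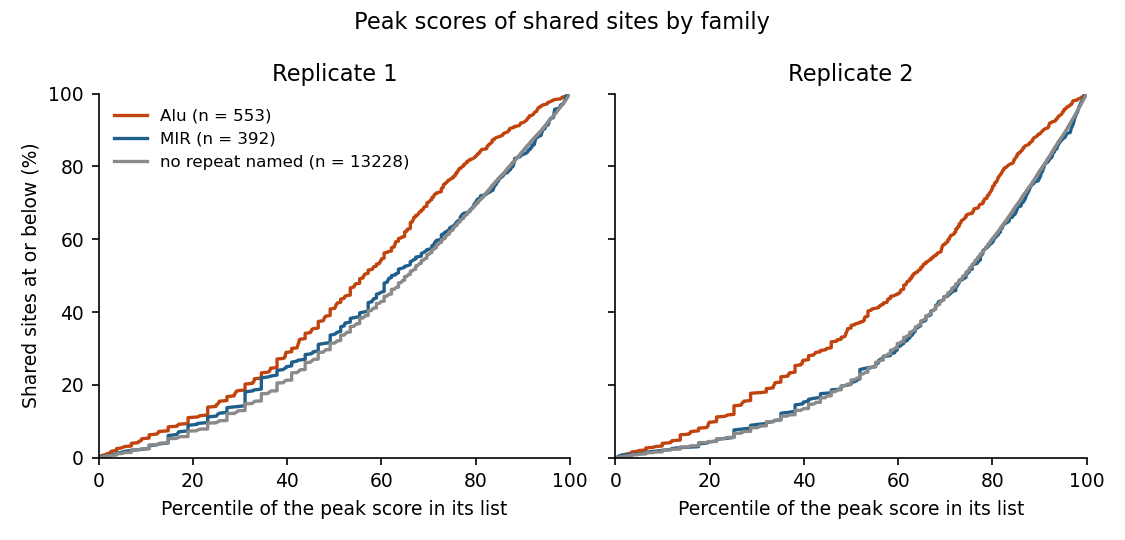
Cumulative share of shared sites (vertical axis, %) at or below each percentile of the deposited peak score within its own list (horizontal axis), for Alu, MIR and regions with no repeat named, in replicate 1 (left) and replicate 2 (right). The Alu curve lies above the other curves over most of the range, with medians of 56.4 and 63.2. The MIR curve runs close to that of regions with no repeat named, which were not limited by annotation.

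Percentiles of the 2 lists are not compared as a change, because the lists differ in length. Across sites, Spearman's rho between the replicate 1 and replicate 2 scores was 0.801 for the 553 Alu sites, 0.892 for the 392 MIR sites and 0.867 for the 13228 regions with no repeat named. All these sites come from the same 2 libraries, so rho is given as a description without a p.

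Alu groups and MIR subfamilies were then taken apart. The 553 Alu sites carried 38 names and the 392 MIR sites 5. AluS was the most numerous Alu group with 317 shared sites, followed by AluJ with 135, AluY with 89 and 12 monomers and unassigned copies. AluY, the youngest group, had the highest share with a partner among AluJ, AluS and AluY in both lists, 65.0% of 137 peaks in replicate 1 (56.7% to 72.4%) and 48.4% of 155 in replicate 2 (40.7% to 56.2%). AluS had 53.0% of 598 and 36.3% of 842, and AluJ had 48.7% of 277 and 45.0% of 298.

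AluY exceeded AluS by 12.0 points in replicate 1 (2.76 to 20.4) and by 12.0 in replicate 2 (3.64 to 20.5). It exceeded AluJ by 16.2 points in replicate 1 (6.07 to 25.7), while the 3.42 points in replicate 2 had an interval that included 0 (-6.17 to 13.0). AluJ and AluS changed order between the lists, with a difference AluJ minus AluS of -4.27 points (-11.3 to 2.83) and 8.62 points (2.17 to 15.1). AluY did not separate from MIR as a whole, at -3.21 points (-12.3 to 5.23) and -3.56 points (-12.0 to 4.99), and both intervals included 0. The grouping into AluJ, AluS and AluY was chosen after the peaks' names were seen.

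AluY peaks also stood higher by score. Over all peaks of the list, the median AluY percentile was 45.0 in replicate 1 and 47.9 in replicate 2, against 32.0 and 26.8 for AluS and 33.1 and 32.0 for AluJ. Among MIR subfamilies, MIRb was the most numerous with 180 shared sites, followed by MIR itself with 92, MIRc with 68, MIR3 with 44 and MIR1_Amn with 8. MIRb recurred in 74.1% of 243 peaks in replicate 1 (68.2% to 79.2%) and 56.5% of 340 in replicate 2 (51.2% to 61.6%). The subfamily named MIR recurred in 61.7% of 149 and 48.2% of 195, so that MIRb exceeded it by 12.3 points in replicate 1 (2.88 to 21.8) and by 8.27 in replicate 2, with an interval that included 0 (-0.507 to 16.9). This pair was chosen after the values were seen. Among shared sites MIRc had the highest medians of the 5 MIR names, at percentiles 73.1 (63.6 to 80.8) and 80.9 (71.4 to 87.4).

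**Figure D3:**
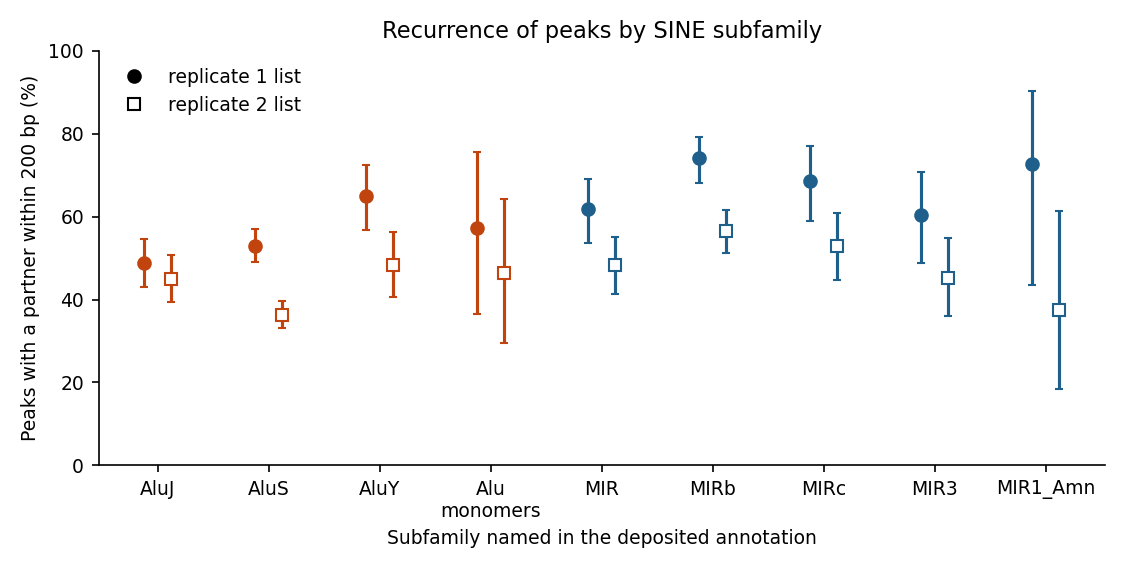
Share of peaks with a partner within 200 bp in the other list (vertical axis, %) for each Alu group (red-brown) and MIR subfamily (blue), in replicate 1 (filled circles) and replicate 2 (open squares); bars are 95% Wilson intervals. AluY stands above AluS in both lists (65.0% against 53.0%, and 48.4% against 36.3%), and the wide bars of MIR1_Amn and the Alu monomers reflect 28 peaks or fewer.

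The rule limits the distance between paired summits, so these distances describe the members only. The median distance between the replicate 1 and replicate 2 summits was 31 bp for Alu (26 to 34) and 27.5 bp for MIR (22 to 32), against 29 bp for regions with no repeat named. The summits lay within 50 bp of each other in 68.4% of Alu pairs and 69.1% of MIR pairs. At the limit of the rule, the last Alu pairs inside had summits 198, 199 and 200 bp apart with replicate 1 scores of 6.43, 29.99 and 7.12. The closest peaks outside it were 2 Alu peaks at 202 bp with scores of 20.9 and 2.52 and a MIR peak at 203 bp with a score of 19.3.

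Membership rests on the repeat under the replicate 1 summit. At the replicate 2 summit the same family was named for 422 of 553 Alu sites (76.3%, 72.6% to 79.7%) and 295 of 392 MIR sites (75.3%, 70.8% to 79.3%), a difference of 1.06 points (-4.41 to 6.67). Where the summits were at most 10 bp apart the family was the same in 97.4% of Alu and 96.5% of MIR sites. Where they were over 100 bp apart it was the same in 32.9% and 16.7%. Of the 131 Alu sites that lost their family, 78 had no repeat named at the replicate 2 summit, 20 lay in a LINE, 13 in an LTR element, 10 in a DNA transposon, 9 in another SINE and 1 in a simple repeat. Of the 97 MIR sites, 88 had no repeat named. Conversely, 106 shared regions were named Alu and 119 were named MIR at the replicate 2 summit only.

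**Figure D4:**
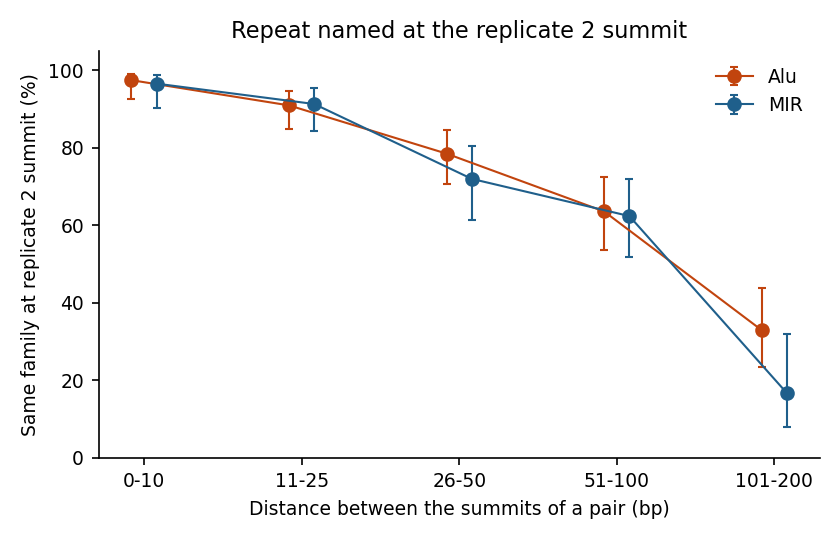
Share of Alu and MIR sites whose replicate 2 summit lies in the same repeat family (vertical axis, %), by distance between the 2 summits of the pair (horizontal axis, bp); points are shares and bars 95% Wilson intervals. Both families fall from over 96% at 0 to 10 bp to 32.9% (Alu) and 16.7% (MIR) beyond 100 bp.

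The third comparison asked where the sites lay relative to genes. In both lists every peak with a repeat named was annotated as intronic, intergenic or without annotation, so a SINE under a promoter, exon or gene end summit is not visible in these files. Sites were therefore set beside shared regions with no repeat named that were intronic or intergenic (11774). Introns held 326 Alu sites (59.0%, 54.8% to 63.0%) and 230 MIR sites (58.7%, 53.7% to 63.4%), a difference of 0.278 points (-6.04 to 6.65). The comparison set held 54.5% in introns, below Alu by 4.49 points (0.248 to 8.62). For MIR the difference from that set was 4.21 points (-0.802 to 9.07).

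Distances to start sites differed between the families at some limits and not at others. The median distance to the nearest TSS was 25995.5 bp for Alu (binomial interval 21767 to 30244, 548 sites with an annotation), 35717.5 bp for MIR (30135 to 44112) and 40852.5 bp for regions with no repeat named (39658 to 41966). The intervals of Alu and MIR overlapped slightly. Within 50 kb of a TSS lay 67.3% of Alu and 59.2% of MIR sites, a difference of 8.15 points (1.92 to 14.4). That limit was chosen after the values were seen. Within 10 kb lay 24.3% of Alu sites and 21.2% of MIR sites, and the difference of 3.10 points had an interval that included 0 (-2.40 to 8.41). With peaks below the median score left out that difference was 0.00831 points, and it turned to -0.540 points over all replicate 1 peaks. Both families exceeded the 16.2% of regions with no repeat named, Alu by 8.07 points (4.60 to 11.9) and MIR by 4.98 points (1.16 to 9.34).

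Of the other features of position, the type of the nearest gene differed between the families beyond counting error. Intron 1 held 117 of the 326 intronic Alu sites (35.9%) and 66 of the 230 intronic MIR sites (28.7%), a difference of 7.19 points (-0.748 to 14.8). The nearest gene was protein-coding for 72.3% of Alu and 65.5% of MIR sites, a difference of 6.87 points (0.886 to 12.9), against 65.3% of regions with no repeat named. Upstream of the nearest TSS lay 44.7% of Alu and 43.6% of MIR sites. The nearest other shared region was a median of 24150 bp from an Alu site (17458 to 29738) and 20017.5 bp from a MIR site (17321 to 25146).

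**Figure D5:**
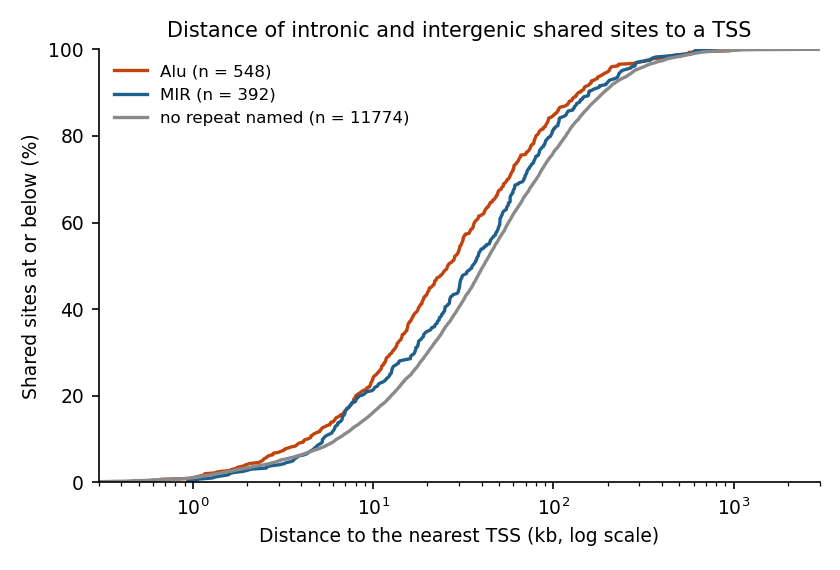
Cumulative share of shared sites (vertical axis, %) at or below each distance to the nearest TSS (horizontal axis, kb, log scale) for Alu, MIR and intronic or intergenic regions with no repeat named. The Alu curve lies to the left of the MIR curve between 10 and 250 kb, and 67.3% of Alu, 59.2% of MIR and 56.3% of the comparison regions lie within 50 kb.

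Shares of sites by chromosome were set side by side without a test. Chromosome Y held 7 Alu sites (1.27%, 0.614% to 2.59%) and no MIR site, and 10 of the 13228 regions with no repeat named (0.0756%, 0.0411% to 0.139%). A count of 0 among 392 MIR sites allows a share of up to 0.765% by the limit of 3 counts, or 0.970% by the Wilson interval. Of the 7 sites, 5 had SPRY3 as nearest gene, at distances of 84145 to 120091 bp, and their scores lay between percentiles 6.94 and 69.6 in replicate 1 and between 6.43 and 41.0 in replicate 2. SPRY3 is a pseudoautosomal gene, which the RefSeq table lists on chromosome X. That label does not show whether the 5 sites themselves lie in sequence shared by X and Y. How reads from sequence shared by X and Y were placed is not given in the sources used here, and the part of read placement in the chromosome Y count was not tested. Chromosome 19 held 10 Alu sites (1.81%, 0.985% to 3.30%) and 4 MIR sites (1.02%, 0.398% to 2.59%), against 1.02% of regions with no repeat named.

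The strongest Alu site lay on chromosome 14 in an AluYh3a3 element, with summits at 94269426 and 94269435 in hg38. Its scores were 546.9 in replicate 1 and 703.0 in replicate 2, ranks 26 and 18 of the whole lists. It fell in intron 24 of 25 of PPP4R4, a regulatory subunit of a protein phosphatase, and the nearest TSS, 23598 bp away, was that of SERPINA10, an inhibitor of coagulation proteases. This was the only Alu site among the 100 highest scores of both lists, and 10 Alu sites were among the 1000 highest of both, against 17 MIR sites.

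Of the other Alu sites among the 10 with the lowest sum of ranks, 3 were on chromosome 17. A site in an AluSz was in intron 1 of 4 of SLFN5, a Schlafen family gene induced by interferon, 1596 bp from its TSS, with scores of 344.3 and 414.1 (summits 35244663 and 35244655). A site in an AluSx1 was in intron 1 of 11 of VMP1, an endoplasmic reticulum protein needed for autophagosome formation, with scores of 319.5 and 396.4. Its nearest TSS, 3207 bp away, was that of PTRH2, a mitochondrial hydrolase of peptidyl transfer RNA. The third was an AluSq2 in intergenic DNA 11237 bp from the TSS of UBB, a ubiquitin gene, with scores of 316.2 and 443.2.

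On chromosome 3 an AluSq2 in intron 2 of 3 of DAG1, which encodes dystroglycan, a receptor for laminin, had scores of 422.8 and 466.4 (summits 49485286 and 49485306). On chromosome 1 an AluSz6 in intron 1 of 25 of USP48, a deubiquitinase, had scores of 200.6 and 279.6. The rest had as nearest TSS those of LOC101928161 (AluJb, in intron 6 of 17 of NCKAP5), LTA4H, a hydrolase of leukotriene synthesis (AluSc), C4orf45 (AluSz) and CLINT1, a clathrin adaptor (AluSq2). Distances to the TSS ranged from 1596 to 141373 bp over the 10, and 3 were within 10 kb. Their paired summits differed by 32 bp at most, and the same element name stood at both summits in 9 of 10.

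The strongest MIR site was intergenic on chromosome 15 in a MIR3 element, with summits at 70349330 and 70349314. Its scores were 617.3 and 653.2, ranks 11 and 33, above the strongest Alu site in replicate 1 and below it in replicate 2. The nearest TSS was that of LINC02205, 156598 bp away. The next, in a MIR element on chromosome 16, had scores of 416.6 and 499.4 and fell in intron 5 of 6 of CFDP1, with BCAR1, an adaptor of focal adhesions, as nearest gene by TSS (37561 bp).

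Several of the strong MIR sites lay in introns of genes with known roles. On chromosome 4 both summits stood at base 17489561, in intron 6 of 6 of QDPR, which regenerates the cofactor of phenylalanine hydroxylase, with scores of 285.4 and 437.9. On chromosome 2 a MIRb in intron 4 of 28 of ALK, a receptor tyrosine kinase, had scores of 263.6 and 401.4 (summits 29455254 and 29455239). On chromosome 12 a MIRc in intron 4 of 14 of MSI1, a neural RNA-binding protein, had scores of 269.4 and 315.2, 3302 bp from its TSS.

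Others of the 10 were nearest to ISX-AS1 (MIRb, scores 302.3 and 537.2, in intron 3 of 4 of LINC02885), LINC00595 (MIR3), ARSD-AS1 (MIR, chromosome X) and LOC100128079 (MIR3, in intron 18 of 27 of KATNIP). The lowest of the 10 in replicate 2 had rank 515, whereas the 10 Alu sites reached rank 838.5. The median distance to a TSS over the 10 was 39348.5 bp, against 13415 bp for the 10 Alu sites, and 2 were within 10 kb.

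Sites were also set beside listed genes of pigmentation, pheomelanin and cysteine metabolism, T-box targets and lineage switching. The share nearest to a listed gene was close to that over all shared regions in both families. Over these 4 lists, holding 81 genes, 5 of 553 Alu sites (0.904%, 0.387% to 2.099%) and 3 of 392 MIR sites (0.765%, 0.261% to 2.23%) had a listed gene as the nearest, against 206 of all 22702 shared regions (0.907%). Within 10 kb of the TSS were 4 Alu sites at 3 genes (0.723%, 0.282% to 1.84%) and no MIR site (interval up to 0.970%). The share of all shared regions, 0.291%, lay within both intervals. All shared regions were not limited by annotation here, whereas the Alu and MIR sites were, so the sets differ in position. Regions with no repeat named, also not limited by annotation, had shares of 1.18% for the nearest gene and 0.401% within 10 kb.

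Of the Alu sites, 2 were in intron 1 of 7 of DCT, dopachrome tautomerase, a melanin synthesis enzyme. The stronger, in an AluSq on chromosome 13 (summits 94476705 and 94476748), was 2977 bp from the TSS with scores of 66.8 and 111.0, percentiles 89.3 and 92.5. The weaker, in an AluSx1 at 94478329, was 1353 bp from it with scores of 5.76 and 6.91, percentiles 19.0 and 25.1. The other Alu sites within 10 kb of a listed gene had low to middling scores.

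At MLANA, the gene of a melanosome membrane protein, an AluJb 7220 bp from the TSS had scores of 6.43 and 19.2 (percentiles 23.1 and 59.8). At SLC3A2, a subunit of the cystine and glutamate exchanger, an AluSq2 5029 bp from the TSS had scores of 7.35 and 6.36 (percentiles 29.1 and 23.2). At CDH1, which encodes E-cadherin and is a known T-box target, an AluJb lay 20492 bp from the TSS with scores of 26.3 and 45.2. Its replicate 1 summit was at 68716798 on chromosome 16. On the same chromosome an AluSx at 68759744, in intron 2 of 14, had no nearest gene named. That site had scores of 13.5 and 18.2 (percentiles 52.2 and 57.8). The counts for listed genes go by the name of the nearest gene, so they leave this AluSx out, and its host gene was not matched here.

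The MIR sites nearest to listed genes were all beyond 10 kb. They were at TFEB, a lysosomal relative of MITF (MIRc, 13844 bp, scores 5.51 and 27.0), SLC24A5, a melanosome ion exchanger (MIR, 30197 bp, scores 11.6 and 10.6), and LEF1, a Wnt pathway factor (MIR, 49988 bp, scores 21.2 and 8.93). Their paired summits lay 122, 54 and 133 bp apart, so none of the 3 remained with a limit of 50 bp, and no SINE was named at the replicate 2 summits of TFEB and LEF1. The pigmentation list of 33 genes had 3 Alu sites and 1 MIR site, the pheomelanin and cysteine list of 14 had 1 Alu site, the T-box target list of 16 had 1 Alu site and the lineage switch list of 19 had 2 MIR sites.

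The whole list of replicate 2 held more such peaks. It had 17 Alu peaks (1.28%, 0.804% to 2.05%) and 8 MIR peaks (1.00%, 0.509% to 1.97%) nearest to a listed gene. The share over all its peaks, not limited by annotation, was 0.862%. Replicate 1 had 6 such Alu peaks and 3 such MIR peaks. Of these replicate 2 peaks, 12 Alu and 4 MIR peaks had no partner, with median percentiles of 29.5 and 41.5. They included 3 Alu peaks and 1 MIR peak nearest to MITF, the melanocyte master regulator, at scores of 2.93 to 9.09, and an AluSx1 3360 bp from the TSS of TYR, tyrosinase, with a score of 5.55. These were named after their values were seen.

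A nearest gene was named for 937 of the 945 sites and not for the other 8. Counted by name, the 937 sites had 866 different nearest genes, of which 24 were nearest to both an Alu and a MIR site. Most genes, 805, had 1 site, 54 had 2 and 7 had 3 or more. The 7 were SPRY3 (5 Alu), INSM1 (2 Alu and 2 MIR), JARID2, MIR4454 and PWP2 (each 2 Alu and 1 MIR), SORCS1 (1 Alu and 2 MIR) and REXO1L2P (3 Alu). The 2 Alu sites labelled MIR4454 lay on different chromosomes, X and 5, so that name does not mark 1 locus. The 3 sites labelled REXO1L2P, all AluJb, lay on chromosome 8 at 85648767, 85756907 and 85784433. Each was 6909 to 6992 bp from a TSS of that name, so this name also marks more than 1 place. For intronic sites, the host gene was also the gene with the nearest TSS in 64.3% of 325 Alu sites (59.0% to 69.3%) and 61.5% of 226 MIR sites (55.0% to 67.6%). The nearest gene is given here as a label of position, and no target was assigned.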

How the data were processed

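TBX3-3xHA was profiled by ChIP-seq in 501mel cells, with 2 ChIP and 2 input samples grouped by title. Per the file headers, each deposited list holds peak summits annotated by annotatePeaks.pl of HOMER against hg38, 1 library per list. Each peak carries a score as deposited, on a scale that is not stated, and it was used by rank within a list. Per the submitters' processing notes, FastQC 0.11.7, cutadapt 2.8, Bowtie2 2.3.5, MACS2 2.1.2 and SAMtools 1.9 were used. Their settings, the control and the treatment of multi-mapping reads are not given in the sources used here, and these could change which copies of a repeat hold a peak.

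Summits were paired within 200 bp with pandas 2.3.3 in Python 3.11.15. Shares have 95% Wilson intervals, differences Newcombe intervals (statsmodels 0.14.6) and medians binomial intervals (scipy 1.17.1). All cover counting error only. Pairing was checked on 10000 simulated summits, which returned 99.97% of the partners placed there and gave one to 0.150% of the summits without. The simulated summits were scattered at random without clusters, and the partners were placed inside the pairing limit. These rates therefore check the code and do not give the rate of chance pairs in the real lists. Named sites are the 10 of each family with the lowest sum of score ranks and those nearest to a listed gene. Of the 10 MIR sites, 1 is not reported here. Members, lists and comparisons were chosen with earlier results of these data known.

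No genome was at hand, so the planned motif counts over all sites were not made. No sequence is printed. Accessions of host transcripts were matched to symbols in the RefSeq gene table. Alternatives covered pairing distance, score, chromosomes, annotation and single lists.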

Additional observations from a re-analysis of the deposited data

How the results depend on the processing

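Of 75 alternative values, 44 stayed within the limit set for their result, 30 moved further, and 1 called difference reversed. The limit was not the same for all results. For recurrence and score it was the SD of the 2 replicate values. For the Alu share, position and summit offset it was the interval of the main value. Counts of listed sites had a limit of their own. The SD for recurrence does not measure spread between replicates, so its part of this tally is a description only. Differences in position whose interval included 0 also changed sign: that for introns, 0.278 points, was -0.327 within 500 bp and negative in both single lists, and that within 10 kb, 3.10 points, was negative in replicate 1 alone and 0.00831 at or above the median score. Leaving out AluY and the 50 kb limit were chosen after seeing the data. Where a value moved, the cause was not tested. The recurrence difference (Alu minus MIR, points, replicates 1 and 2) was -10.5 and -6.99 within 50 bp, -10.5 and -5.18 at or above the median score, -1.35 and -6.16 among the 5000 highest scores, and -11.7 in replicate 1 within 500 bp. Averaged over score classes it was -4.97 and 0.135. In replicate 2 its sign thus changed, at a value close to 0 that has no interval. The difference in median percentile was -1.62 and -1.31 among the 5000 highest scores and -4.90 in replicate 2 at or above the median score. The Alu share of Alu and MIR sites, 58.5%, was 52.2% at or above the median and 41.1% among the 5000 highest scores. The intron difference was 8.02 points among the 5000 highest. Median summit offsets for Alu and MIR were 14 and 13 bp among the 5000 highest, 21 and 18 bp with the same family in both lists, 20 and 21 bp at or above the median and 18 and 16 bp within 50 bp, and that of Alu was 35 bp within 500 bp. No MIR site had a listed gene as nearest within 50 bp (0). Using all peaks of a single list in place of shared sites, the Alu share was 62.4% to 64.2%, the percentile difference -14.6 in replicate 1 and -20.4 in replicate 2, the intron difference -3.72 to -0.250, the 10 kb difference -0.540 to 2.26, and the listed sites 6 to 17 for Alu and 3 to 8 for MIR. Motif alternatives were not run. No paired analysis was possible because the input samples had no peak list here. Depth is unknown, and how reads from near-identical copies were placed could not be examined.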

Other observations

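The 33 shared SINE sites outside Alu and MIR lay in ancient families kept across mammals or vertebrates: 15 in MamSINE1, 9 in AmnSINE1, 6 in LFSINE_Vert and 3 in AmnSINE2. The family tRNA-RTE, whose shared sites were all MamSINE1, recurred in 15 of 21 replicate 1 peaks (71.4%, 95% Wilson interval 50.0% to 86.2%). In replicate 2, 20 of 28 peaks recurred (71.4%, 52.9% to 84.7%). The share over all peaks, 69.9% in replicate 1 and 56.1% in replicate 2, lay within the interval in each list. Shared sites of tRNA-RTE had median percentiles of 67.3 and 75.1, against 63.6 and 70.5 over all shared regions. The strongest of the 33 was a MamSINE1 site on chromosome 20 with summits at 45050130 and 45050161 and scores of 165.1 and 287.0, with KCNS1 as the gene with the nearest TSS. The second lay in intron 2 of 17 on chromosome 7, 1338 bp from the TSS of GRB10, an adaptor that restrains insulin receptor signalling, with scores of 100.3 and 214.0.

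Singled out after its values were seen, an AmnSINE2 site at 22052582 on chromosome 9 had scores of 11.6 and 24.0. These were percentiles 46.6 and 65.9, at place 27 by sum of ranks among the shared SINE sites outside Alu and MIR. The site was annotated to intron 3 of 3 of a transcript whose gene was not matched here. Its nearest TSS, 43269 bp away, was that of CDKN2B, a cell cycle inhibitor.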
